A study of Mus musculus with 24 samples.

Results

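White fat of the epididymal pad (eWAT) was compared between circadian time (CT) 1 and CT7 in control mice. In an animal that is active at night this is the step through the subjective morning, the start of the rest phase. The step rests on 6 of the 24 Affymetrix GeneChip arrays of the series, the 3 titled control CT7 and the 3 titled control CT1, each deposited as a separate sample, where the series' design gives 3 mice per genotype and time. The control (CON) mice were Syt10-Cre/Cre x Bmal1-+/-, so they carried the Cre driver and 1 null allele of Bmal1 themselves and are not wild type. The other genotype, MUT, was Syt10-Cre/Cre x Bmal1-flox/-, in which Cre expressed from the Syt10 locus deletes Bmal1 in the master pacemaker of the brain, the suprachiasmatic nucleus (SCN). The Syt10 locus is also active in other neurons. The MUT arrays at CT1 and CT7 (3 each) are used here as the same 6 h of circadian time without a working SCN clock. All mice were kept for 2 weeks in a light-dark cycle, moved to constant darkness, and killed on day 2 at intervals of 6 h. Age is not given in the labels. The series addresses daily rhythms of gene expression with and without SCN clock function, and the control step gives the changes over these hours with that function present.

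Values are log2 signals of 1 probe set per gene, the brightest of those that carry a single gene symbol, for 15526 genes above a level filter. A difference is the mean of the CT7 arrays minus the mean of the CT1 arrays on the log2 scale, given with the standard error (SE) of the limma model, n = 3 arrays per group. A gene is called higher or lower where its p-value, adjusted over all 15526 genes by the Benjamini-Hochberg method, is under 0.05. With 3 mice and 3 arrays per group, each array was taken as 1 mouse. The model estimates 1 spread per gene from all 24 arrays in 8 groups. SEs and p-values thus measure the spread between mice within all groups, not within the compared groups alone. The labels give no batches. Because the tissue was measured in bulk, fewer cells of a type and less RNA per cell cannot be told apart. One label field (source name) gives mediobasal hypothalamus, whereas the titles and the treatment protocol give eWAT. The 10 tested adipocyte markers had a median level at percentile 99.5 of all tested genes, and 11 hypothalamus and neuron markers had theirs at percentile 30.4. Syt10 lay between 7.23 and 7.68 on all 24 arrays, close to the filter. Arntl, the official symbol of Bmal1, is measured here in fat, where the SCN deletion is not checked by it. Arntl ranged from 7.96 to 9.64 in CON and from 7.92 to 9.58 in MUT.

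One difference between the arrays bears on what follows. CT7 replicates 2 and 3 had a narrower spread of signals than the other arrays compared, with interquartile ranges of 1.953 and 1.968 on the log2 scale. CT7 replicate 1 had 2.066 and the CT1 arrays 2.069, 2.055 and 2.056. The mean interquartile range was 2.060 ± 0.008 at CT1 and 1.996 ± 0.061 at CT7 (SD, n = 3; exact two-sided permutation p = 0.30, where 0.1 is the smallest p this design allows). Without those 2 arrays, 32 of the 41 genes named below as called in CON lost their call, none changed direction, and the 9 that kept it were Dbp, Per3, Ciart, Tef, Slc6a6, Sgk1, Usp2, Asb12 and Morc4. Without the other pairs of CT7 arrays, 24 (replicates 1 and 2) and 26 (replicates 1 and 3) lost it.

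The molecular clock is a loop of transcription. The activators BMAL1 (Arntl), CLOCK and NPAS2 bind E-boxes and switch on the Per, Cry, Nr1d and Dbp genes. PER and CRY proteins then block the activators, and the NR1D (REV-ERB) receptors shut down Arntl, Clock and Npas2 themselves. DBP, TEF and HLF, the PAR bZIP factors, carry the rhythm on to D-box genes, which NFIL3 opposes. Fat has such a clock in its own cells, and genes of lipid storage and release are among its known outputs.

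The sequences just upstream of 7 clock genes are shown because they include the largest changes of the step and because E-boxes, D-boxes and REV-ERB elements are the letters through which the loop is known to work. They are the 250 bases before the most upstream RefSeq start (build GRCm38.p6), written 5′ to 3′ along the gene. Per3, Bhlhe41 and Dbp were the 3 clock-list genes with the largest rises, and Npas2, Arntl and Clock the 3 with the falls. Ciart was added after its values were seen, because its E-boxes stand close together. Capitals mark an E-box (CACGTG) or a D-box (TTATGTAA or TTACGTAA), searched on both strands. The windows of Dbp, Npas2, Arntl and Clock hold none of these letters, and none of the 7 holds the element cores TAGGTCA or TGGGTCA or the cAMP element TGACGTCA. These are matches of letters, not bound sites, and longer regions were not searched.
Per3 (chr4:151044666-151044915, minus strand, 2 D-boxes): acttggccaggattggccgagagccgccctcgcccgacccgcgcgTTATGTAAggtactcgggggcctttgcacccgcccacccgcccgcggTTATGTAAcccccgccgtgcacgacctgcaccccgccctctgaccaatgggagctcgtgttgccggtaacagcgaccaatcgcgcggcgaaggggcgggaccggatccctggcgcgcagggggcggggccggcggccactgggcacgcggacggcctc
Bhlhe41 (chr6:145865421-145865670, minus strand, 1 E-box): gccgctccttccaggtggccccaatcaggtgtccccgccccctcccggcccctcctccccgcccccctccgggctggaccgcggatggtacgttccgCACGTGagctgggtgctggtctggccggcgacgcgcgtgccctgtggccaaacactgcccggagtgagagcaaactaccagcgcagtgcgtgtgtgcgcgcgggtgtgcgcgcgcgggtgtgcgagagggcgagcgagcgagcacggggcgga
Dbp (chr7:45704997-45705246, plus strand, the largest rise): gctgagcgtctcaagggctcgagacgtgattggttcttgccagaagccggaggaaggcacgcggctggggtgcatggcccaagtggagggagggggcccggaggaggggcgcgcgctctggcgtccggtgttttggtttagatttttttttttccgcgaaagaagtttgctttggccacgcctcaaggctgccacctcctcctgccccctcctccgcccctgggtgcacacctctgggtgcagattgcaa
Ciart (chr3:95882229-95882478, minus strand, 3 E-boxes): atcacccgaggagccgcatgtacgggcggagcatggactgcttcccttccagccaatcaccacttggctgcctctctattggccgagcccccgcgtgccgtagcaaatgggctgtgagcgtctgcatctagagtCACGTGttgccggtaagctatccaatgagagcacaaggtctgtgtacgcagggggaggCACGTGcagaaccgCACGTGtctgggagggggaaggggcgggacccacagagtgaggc
Npas2 (chr1:39194022-39194271, plus strand, fell): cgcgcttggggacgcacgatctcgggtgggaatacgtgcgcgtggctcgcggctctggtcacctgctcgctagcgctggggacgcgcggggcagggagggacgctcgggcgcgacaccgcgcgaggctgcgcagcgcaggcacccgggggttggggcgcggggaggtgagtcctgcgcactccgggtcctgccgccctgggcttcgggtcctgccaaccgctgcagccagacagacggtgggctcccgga
Arntl (chr7:113207215-113207464, plus strand, fell): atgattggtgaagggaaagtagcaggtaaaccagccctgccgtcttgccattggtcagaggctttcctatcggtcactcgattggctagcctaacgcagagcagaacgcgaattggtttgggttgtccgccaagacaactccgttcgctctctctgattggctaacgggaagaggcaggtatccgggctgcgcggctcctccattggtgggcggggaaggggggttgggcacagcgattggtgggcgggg
Clock (chr5:76304793-76305042, minus strand, fell): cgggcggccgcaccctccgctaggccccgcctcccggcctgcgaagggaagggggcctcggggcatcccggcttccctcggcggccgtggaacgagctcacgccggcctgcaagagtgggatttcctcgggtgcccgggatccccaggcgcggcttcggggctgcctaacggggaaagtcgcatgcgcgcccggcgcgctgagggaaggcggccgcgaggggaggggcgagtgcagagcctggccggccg
The 3 E-boxes of Ciart begin 116, 58 and 44 bases before the start, the E-box of Bhlhe41 153 bases before it, and the 2 D-boxes of Per3 205 and 158 bases before it. An E-box was present in the windows of 6 of the 32 called higher genes that have one in the table (18.8%): Bhlhe41, Ciart, Pdk2, Per1, Slc43a1 and Tef. The share was 7.99% over the 12084 tested genes with a window and 5.6% (7 of 125) among the genes called lower. Among the 9 of the 11 clock-list genes called higher that have a window it was 44.4%, and among the other 23 genes called higher with a window 8.7%. A D-box was found in 2 of the 32 (6.25%; Per3 and Crtac1), in 0 of the 125, and in 0.662% of all tested genes. The element cores TAGGTCA and TGGGTCA were found in 0 of the 32, in 3.2% of the 125 and in 4.62% of all tested genes. The E-box variant CACGTT, also searched, was found in 6.25% of the 32, 4% of the 125 and 4.25% of all tested genes. For the cAMP element these shares were 3.12%, 3.2% and 2.34%.

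From CT1 to CT7, 38 of the 15526 genes rose (0.245%) and 153 fell (0.985%), together 1.23% of the genes tested. The rises were led by the repressors and output factors of the clock, with Dbp, Per3, Bhlhe41, Ciart, H2-Q10 and Per1 at least doubled. The falls were led by Asb12, Npas2, Pnpla3 and Dtx4, each at most at 0.491 of its CT1 signal. The median rise was 1.49-fold and the median fall 1.32-fold. Of the genes that rose, 19 reached 1.5-fold, and of those that fell, 23 did. Over all genes tested the median difference was -0.03, and 59.4% of the differences lay below 0. The arrays of the 2 times did not overlap for any of the 38 genes that rose, nor for 152 of the 153 that fell. Over all genes, 6.65% had all CT7 arrays above all CT1 arrays, and 16.1% had them all below.

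**Figure D1:**
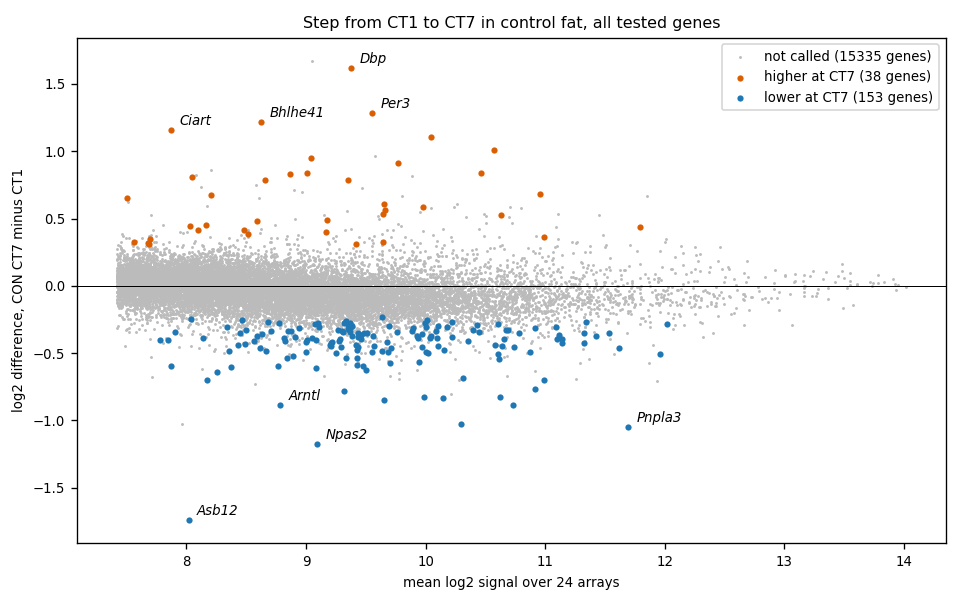
Log2 difference between CT7 and CT1 in control fat (y axis) against the mean log2 signal over all 24 arrays (x axis), 1 point per tested gene. The 38 genes called higher (orange) reach 1.62 and are spread over the range of signals, while the 153 called lower (blue) reach -1.74 and lie mostly above a signal of 8.95.

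How many genes passed depended on single arrays. Leaving out 1 of the 6 arrays gave 14 to 53 genes higher and 15 to 264 lower. The highest counts came without CT7 replicate 1 (53 and 264). Low counts came without CT1 replicate 1 (14 and 20), without CT7 replicate 3 (17 and 15) and without CT7 replicate 2 (28 and 35), and counts between them without CT1 replicate 2 (25 and 67) and CT1 replicate 3 (25 and 77). A core of 11 rises was called in each of these 6 fits: Dbp, Per3, Ciart, Per1, Slc5a6, Tef, Slc6a6, Usp2, Plcl1, Nrg4 and Tcim. A core of 13 falls was called in each as well: Asb12, Npas2, Dtx4, Arntl, Dapk1, Klb, Morc4, Clock, Pla2g15, Gramd4, Fosl2, Dhrs3 and Plxna1. These 24 genes were also called after quantile normalization and with each array's trend over signal level removed.

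The tested activators of the clock fell, except Rora. Npas2, the partner that can replace CLOCK, read 9.81, 9.56 and 9.44 at CT1 and 8.60, 8.32 and 8.37 at CT7. Every CT7 array lay below every CT1 array, a 2.26-fold fall (-1.18 ± 0.17, adjusted p = 0.000544). Arntl read 9.13, 9.00 and 8.73 at CT1 and 8.09, 7.96 and 8.14 at CT7. The groups were again apart, and Arntl fell by 0.89 on the log2 scale (1.85-fold; adjusted p = 0.00226). Clock read 11.22, 11.03 and 11.10, then 10.58, 10.30 and 10.35, a smaller fall with a tighter error (-0.70 ± 0.09, 1.63-fold, adjusted p = 9.37e-05). Rora, which activates Arntl through the elements that REV-ERB occupies, read 9.37, 9.34 and 9.33 at CT1 and 9.34, 9.25 and 9.30 at CT7, so its groups overlapped (-0.05 ± 0.09, adjusted p = 0.818). Thus 3 of the 4 tested activators fell, where 0.985% of all genes did. Without CT7 replicates 2 and 3 none of the 3 was called, although each kept its direction. With 1 CT7 array left, few genes were called whichever array it was: 10 to 14 higher and 3 to 23 lower.

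Of the 9 tested repressors, 5 rose and none fell, where 0.245% of all genes rose and 0.985% fell. Per3, a period gene, read 9.03, 8.95 and 9.36 at CT1 and 10.36, 10.46 and 10.37 at CT7. All CT7 arrays lay above all CT1 arrays, and Per3 rose 2.44-fold (1.29 ± 0.16, adjusted p = 9.37e-05). Per1, the period gene that also answers to hormones, went from 10.28, 10.07 and 10.49 to 11.23, 11.31 and 11.33, a 2.01-fold rise (adjusted p = 0.000462). Ciart encodes a repressor that binds BMAL1 directly. It read 7.49, 7.65 and 7.72 at CT1 and 8.88, 8.70 and 8.76 at CT7, and its SE of 0.07 was small beside the rise of 1.16 (2.23-fold, adjusted p = 1.06e-09). No other gene in this comparison had so small a p.

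Bhlhe41 and Bhlhe40 encode DEC2 and DEC1, which compete with the activators for E-boxes. Bhlhe41 went from 7.70, 7.96 and 8.19 to 9.48, 8.96 and 9.06, 2.33-fold (1.22 ± 0.24, adjusted p = 0.0101). Its call was lost without CT1 replicate 1 or CT7 replicate 3 (adjusted p up to 0.0987). Bhlhe40 read 8.73, 8.71 and 8.80 at CT1 and 9.69, 9.72 and 9.56 at CT7, with a gap wider than the spread of these 6 arrays. It was called only narrowly (0.91 ± 0.22, adjusted p = 0.0406). The SE takes in the spread of every group. The SD of Bhlhe40 was 0.05 at CON CT1 and 0.09 at CON CT7, but 0.61 at MUT CT13. Bhlhe40 lost the call in each of the 6 fits without 1 array (adjusted p from 0.064 to 0.147).

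The other 4 repressors did not pass. Nr1d2, the REV-ERB-beta gene, read 9.48, 9.67 and 9.75 at CT1 and 10.40, 10.31 and 10.39 at CT7, without overlap (0.73 ± 0.19, adjusted p = 0.0578). With the level trend removed, or after quantile normalization, Nr1d2 was called. Nr1d1, the REV-ERB-alpha gene, read 11.81, 12.13 and 12.19, then 12.38, 12.06 and 12.25, so its groups overlapped (0.19 ± 0.17, adjusted p = 0.633). Both CT1 and CT7 were high for Nr1d1, whose control means at CT13 and CT19 were 10.06 and 9.42. Cry1 had a difference of 0.24 ± 0.09 and Cry2 of 0.06 ± 0.07. Cry1 stood highest at CT19, with a control mean of 8.98 against 8.58 at CT7. Per2 had no probe set of its own.

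The PAR bZIP factors rose as a family. Dbp had the largest rise of any gene called, from 8.68, 9.09 and 9.33 at CT1 to 10.61, 10.62 and 10.73 at CT7. The groups were apart, and Dbp rose 3.08-fold (1.62 ± 0.17, adjusted p = 1.46e-05). Tef went from 8.62, 8.65 and 8.78 to 9.66, 9.62 and 9.31 (1.79-fold, adjusted p = 0.000168). Hlf went from 8.24, 8.48 and 8.30 to 8.80, 8.68 and 8.70, the smallest rise of the family (1.31-fold, adjusted p = 0.0145), and its call was lost without CT1 replicate 1, CT1 replicate 3 or CT7 replicate 3 (adjusted p up to 0.108). Nfil3, which opposes them at D-boxes, read 8.82, 8.41 and 8.68, then 8.22, 8.47 and 8.39, with overlap (-0.27 ± 0.10, adjusted p = 0.191).

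Of 6 tested output genes that cycle in many tissues, 3 rose, where 0.245% of all genes did. Usp2, a deubiquitinating enzyme, read 8.91, 8.83 and 8.78, then 9.53, 9.90 and 9.44 (1.73-fold, adjusted p = 0.000144). Wee1, the kinase that holds back mitosis, read 7.42, 7.54 and 7.73, then 8.29, 8.32 and 8.12 (1.60-fold, adjusted p = 0.0094). The Wee1 call was lost without CT1 replicate 1 or CT7 replicate 2 (adjusted p up to 0.0842). Tspan4, a tetraspanin, rose 1.45-fold (adjusted p = 0.00587; 0.0582 without CT1 replicate 1). Tns2, with a difference of 0.25, and Leo1 and Ypel2, with -0.21 and -0.06, were not called.

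**Figure D2:**
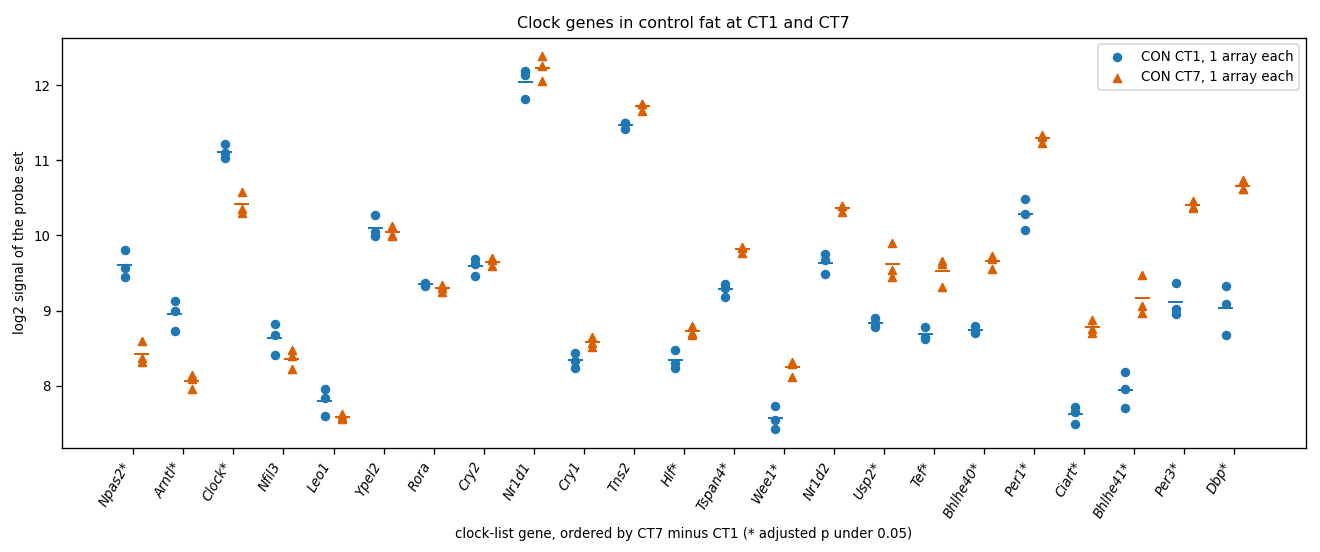
Log2 signal (y axis) of each tested clock-list gene (x axis, ordered by the difference) on the 3 control arrays of CT1 (blue circles) and the 3 of CT7 (orange triangles). Bars are group means and asterisks mark an adjusted p under 0.05. The 3 activators at the left lie lower at CT7 without overlap, the 11 starred genes at the right lie higher without overlap, and Nr1d1 and Cry2 overlap.

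Outside the clock lists, the largest rises included 2 transporters. Slc5a6, which carries biotin, pantothenate and lipoate into cells, read 8.89, 9.36 and 9.14 at CT1 and 9.92, 10.14 and 10.17 at CT7 (1.93-fold, adjusted p = 9.37e-05). Slc6a6, the taurine transporter, read 10.20, 10.39 and 10.43, then 11.31, 11.24 and 10.98 (1.79-fold, adjusted p = 0.000542). Both were at or near their CT1 signal again by CT13, with control means of 8.97 and 10.40. Sgk1, a kinase induced by serum and glucocorticoids, read 8.39, 8.55 and 8.68, then 9.62, 8.97 and 9.52 (1.78-fold, adjusted p = 0.00533). CT7 replicate 2 was the lowest of its CT7 arrays, and the call was lost without CT1 replicate 1 or CT7 replicate 3 (adjusted p up to 0.0601). H2-Q10, a secreted class I histocompatibility gene, rose 2.16-fold (adjusted p = 0.0292), and Serpina1a, an alpha-1-antitrypsin gene, 1.75-fold (adjusted p = 0.0359). Both belong to families of near-identical copies, so their probe sets may read other members. H2-Q10 kept its call in 2 of the 6 fits without 1 array (lost without CT1 replicates 1 and 2 and CT7 replicates 2 and 3, adjusted p up to 0.142) and Serpina1a in none (0.0609 to 0.13).

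Asb12, a member of the ankyrin repeat and SOCS box family, had the largest fall. It read 8.44, 8.01 and 7.98 at CT1 and 6.40, 6.44 and 6.37 at CT7, below the level filter of 7.416 on every CT7 array. The fall was 3.35-fold (-1.74 ± 0.21, adjusted p = 9.37e-05). By CT13 its control mean was 7.90 and by CT19 8.40, so the low point stood at CT7 alone among the 4 times. Pnpla3 (adiponutrin), a lipase-like protein of lipid droplets, read 11.55, 11.75 and 11.60, then 10.69, 10.75 and 10.31 (2.07-fold lower, adjusted p = 0.007; 0.0825 without CT7 replicate 3). Dtx4, an E3 ubiquitin ligase of the Deltex family, read 10.80, 10.64 and 10.55, then 9.68, 9.64 and 9.60 (2.04-fold lower, adjusted p = 0.000165).

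The other large falls were between 1.70-fold and 1.85-fold. Dapk1, a calcium-regulated kinase linked to cell death, went from 11.21, 10.85 and 10.97 to 10.32, 10.00 and 10.06 (adjusted p = 0.00035). Klb encodes beta-Klotho, the co-receptor through which fat responds to FGF21. It read 11.20, 10.76 and 10.98 at CT1 and 10.49, 9.97 and 10.01 at CT7 (1.77-fold lower, adjusted p = 0.00215). Morc4 fell by 0.82 on the log2 scale (adjusted p = 0.00035). Dusp10, a phosphatase of p38 and JNK kinases, read 9.90, 9.53 and 9.80, then 8.99, 9.00 and 8.69 (adjusted p = 0.0068), and lost its call without CT1 replicate 1 or CT7 replicate 3 (adjusted p up to 0.0771). Trp53i11 fell 1.70-fold (adjusted p = 0.0094; 0.0858 without CT7 replicate 3). Cdkn1a, the cell cycle inhibitor p21, read 10.05, 10.07 and 9.99, then 9.46, 9.06 and 9.08 (1.79-fold lower, adjusted p = 0.00941), a call lost without CT1 replicate 1, CT7 replicate 2 or CT7 replicate 3 (adjusted p up to 0.0834).

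The step was a peak for most genes that rose and a trough for most that fell. Of the 38 rises, the control mean was highest at CT7 in 32, at CT13 in 5 and at CT19 in 1. Bhlhe40 was the one that stood highest at CT19, with a control mean of 10.82 against 9.66 at CT7. Wee1, Usp2 and Tspan4 had their highest control means at CT13, at 8.69, 9.89 and 10.07. Of the 153 falls, the mean was lowest at CT7 in 131, at CT13 in 21 and at CT19 in 1. The starting point was the day's lowest mean in 21 of the 38 rises, and CT19 held it in the other 17. CT1 was likewise the day's highest mean for 86 of the falls, with 57 at CT19 and 10 at CT13. These counts describe genes chosen for their CT1 to CT7 difference, so the extreme at CT7 or CT1 is partly fixed by that choice.

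**Figure D3:**
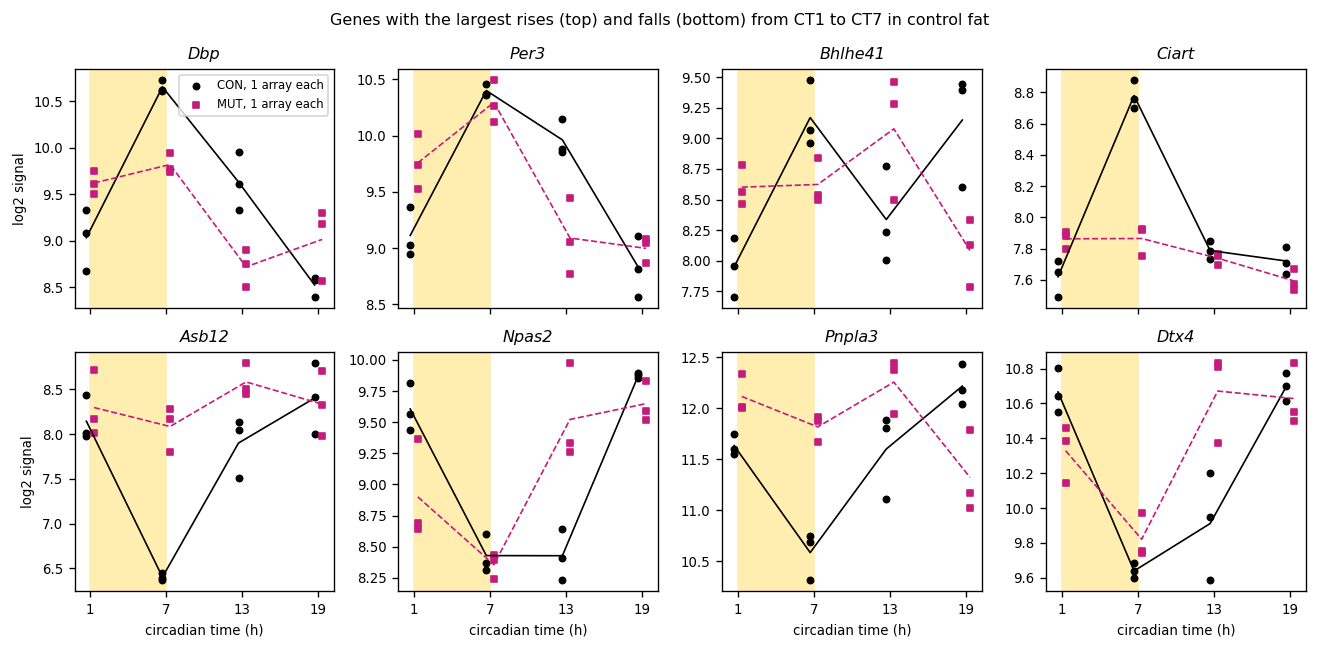
Log2 signal (y axis) against circadian time in hours (x axis) for the 4 genes with the largest rises (top) and the 4 with the largest falls (bottom). Points are single arrays and lines join group means, in CON (black, solid) and MUT (magenta, dashed), and shading marks the step from CT1 to CT7. In CON, Ciart peaks at CT7 alone and Asb12 dips at CT7 alone, while in MUT neither gene was called over the step.

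In most lists of lipid, glucose and hormone genes no more than 1 or 2 members were called, where 0.245% of all genes rose and 0.985% fell. These lists were chosen with earlier results of these data known. Of 19 tested genes of fatty acid and triglyceride synthesis 1 rose and 1 fell, and the median difference was 0.03. Acacb, the mitochondrial acetyl-CoA carboxylase whose product restrains fatty acid oxidation, read 10.26, 10.70 and 10.47, then 11.01, 10.96 and 11.05 (1.44-fold, adjusted p = 0.0476). That call was lost in 5 of 6 fits without 1 array (adjusted p up to 0.211; kept only without CT1 replicate 2) and with the arrays shifted to 1 median. Pnpla3 was the member that fell. Lpin1, the phosphatidate phosphatase, read 11.66, 11.84 and 11.87, then 12.05, 12.15 and 12.13, and was not called (0.32 ± 0.09, adjusted p = 0.0776).

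Of 17 genes of lipolysis and fatty acid handling, 1 rose, where 0.245% of all genes did. Slc27a1, the fatty acid transporter FATP1, read 11.77, 11.92 and 11.89, then 12.40, 12.22 and 12.28 (1.35-fold, adjusted p = 0.0083; 0.0745 without CT1 replicate 1). The lipases of stored fat were not called: Pnpla2 (ATGL) had a difference of 0.10 ± 0.06 and Lipe (HSL) of 0.09 ± 0.06. None of 14 genes of fatty acid oxidation was called, with differences between -0.17 and 0.14. Of 7 genes that control pyruvate dehydrogenase, Pdk2, a kinase that shuts the enzyme off, rose 1.29-fold (adjusted p = 0.0474). Pdk2 went from 10.88, 10.88 and 10.93 to 11.22, 11.24 and 11.33, and was not called in any of the 6 fits without 1 array (adjusted p from 0.0532 to 0.21).

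Of 12 genes of glucose uptake and glycolysis, 1 fell, where 0.985% of all genes fell and 0.245% rose. Pfkp, a phosphofructokinase, read 9.59, 9.64 and 9.62, then 9.31, 9.13 and 9.05 (1.37-fold lower, adjusted p = 0.0094). It lost the call without CT1 replicate 1, CT7 replicate 2 or CT7 replicate 3 (adjusted p up to 0.0858). Pfkfb3, which makes the allosteric activator of phosphofructokinase, read 11.05, 11.13 and 11.16, then 11.54, 11.47 and 11.44, without overlap and just short of the threshold (0.37 ± 0.10, adjusted p = 0.0583). With the level trend removed Pfkfb3 was called, and after quantile normalization it was not. Of 10 glycogen genes, Ugp2, which makes the UDP-glucose used for glycogen, fell 1.29-fold (adjusted p = 0.0218), a call lost without CT1 replicates 1 or 2 or CT7 replicates 2 or 3 (adjusted p up to 0.134). None of 15 insulin signalling genes was called. Of 9 adipokines, Nrg4, a growth factor secreted by fat, rose from 9.33, 9.41 and 9.45 to 10.04, 9.94 and 10.03 (1.53-fold, adjusted p = 0.000869). Lep (leptin) had a difference of -0.35 ± 0.14 (adjusted p = 0.209).

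Cholesterol synthesis was the metabolic list whose median lay farthest below 0. Its tested members lay below 0 in 16 of 17 cases (59.4% of all genes did), with a median of -0.27 against -0.03 over all genes. In 9 of the 17 all CT7 arrays lay below all CT1 arrays, which held for 16.1% of all genes. Sqle, the squalene epoxidase, was the 1 member called, from 8.49, 8.73 and 8.29 to 7.82, 7.95 and 7.82 (1.56-fold lower, adjusted p = 0.0272). The call was lost without CT1 replicates 1 or 2 or CT7 replicates 2 or 3 (adjusted p up to 0.13). Hmgcs1, at the start of the pathway, had -0.52 ± 0.14 (adjusted p = 0.0583), and Fdps -0.47 ± 0.17 (adjusted p = 0.175). With the level trend removed the median of the list was -0.20.

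Glucocorticoid targets split, with Per1 and Sgk1 higher and Cdkn1a lower among 14 and a median of 0.05. Among all genes 0.245% rose and 0.985% fell. Tsc22d3 (GILZ), a widely used glucocorticoid marker, had 0.24 ± 0.08 (adjusted p = 0.128) and stood higher at CT13, at 9.78 against 9.22 at CT7. Of 10 p53 targets, Cdkn1a was the 1 called, and 9 lay below 0, where 59.4% of all genes did. Of 17 immediate early genes, Fosl2, an AP-1 subunit, fell from 10.06, 9.97 and 9.91 to 9.51, 9.60 and 9.41 (1.39-fold, adjusted p = 0.000542). Of 13 amino acid and vitamin transporters on the list, 1 was called lower and none higher. The list does not hold Slc5a6, the vitamin transporter that rose. Slc7a8, a carrier of large neutral amino acids, fell from 10.71, 10.35 and 10.33 to 10.02, 9.70 and 9.62 (1.61-fold, adjusted p = 0.00531). Its call was lost without CT1 replicate 1 or CT7 replicate 3 (adjusted p up to 0.0643). Of the 13, 6 had all CT7 arrays above all CT1 arrays (6.65% of all genes did) and 2 all below (16.1%). The median of these transporters was 0.02. No member was called in either direction among 14 heat shock proteins, 17 genes of the unfolded protein response, 15 FOXO and fasting genes, 8 interferon response genes, 11 inflammation genes, 18 genes of oxidative phosphorylation, 22 of the proteasome, 18 of autophagy or 17 nuclear receptors. The same held for 13 cytosolic ribosomal proteins, 13 adipogenic transcription factors, 11 genes each of NAD metabolism and of adrenergic signalling, 15 of ribosome assembly, 7 of the cell cycle and 2 cold-inducible RNA-binding proteins.

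Of 20 collagen and matrix genes 3 fell, where 0.985% of all genes did: Mmp14, a membrane metalloproteinase, 1.31-fold (adjusted p = 0.0238), Lox, which cross-links collagen, 1.35-fold (adjusted p = 0.0299) and Col5a1 1.27-fold (adjusted p = 0.0444). The median of the list was -0.23 in CON and -0.21 in MUT, and 17 of 20 lay below 0 in CON, against 59.4% of all genes. Without CT1 replicate 1, CT7 replicate 2 or CT7 replicate 3, and with the level trend removed, none of the 20 was called. Without CT1 replicate 2 or CT1 replicate 3, 1 was.

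The 10 mesothelium markers, genes of the lining that covers the fat pad, were all below 0, by 0.15 to 0.68. Their median was -0.45, 7 of the 10 had CT7 arrays wholly below CT1 (16.1% of all genes did), and none was called. Their mean level was 8.91, 8.99 and 8.55 on the CT1 arrays and 8.35, 8.44 and 8.41 on the CT7 arrays, so all 3 CT7 arrays lay below CT1 (8.816 ± 0.237 against 8.397 ± 0.045, SD, n = 3; exact two-sided permutation p = 0.10, the smallest possible). Of the defining markers, Msln had -0.65 ± 0.32 and Upk3b -0.63 ± 0.24. Fibroblast and preadipocyte markers lay below 0 in 9 of 10 cases, where 59.4% of all genes did. Their median was -0.30, with list means of 9.60, 9.75 and 9.48 against 9.33, 9.34 and 9.32. Macrophage markers had a median of -0.14 and adipocyte markers of 0.02, with none called in any of these lists. With the mesothelium level as a covariate, 47 genes were called higher and 147 lower. Of the 38 rises and 153 falls, 32 and 85 remained called, and none of the 3 matrix genes did, while 1 other matrix gene, Timp3, was called higher in that fit (Timp3 had 0.29 ± 0.11 without it, not called). In CON this level and the time cannot be told apart, since all 3 CT7 arrays lay below all CT1 arrays. The part of these cell types in the falls was not tested.

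Among 10 endothelium markers, 1 fell, where 0.985% of all genes did. Cldn5, a tight junction protein of vessels, went from 9.91, 9.97 and 10.04 to 9.44, 9.32 and 9.29 (1.54-fold lower, adjusted p = 0.0083, and 0.0713 without CT7 replicate 3). The other 9 were not called, among them Kdr (-0.28 ± 0.10) and Cdh5 (-0.08 ± 0.07), and the median of the list was -0.06. No smooth muscle, lymphocyte, mast cell, epididymis, skeletal muscle, erythrocyte, brown adipocyte or neuron marker was called.

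**Figure D4:**
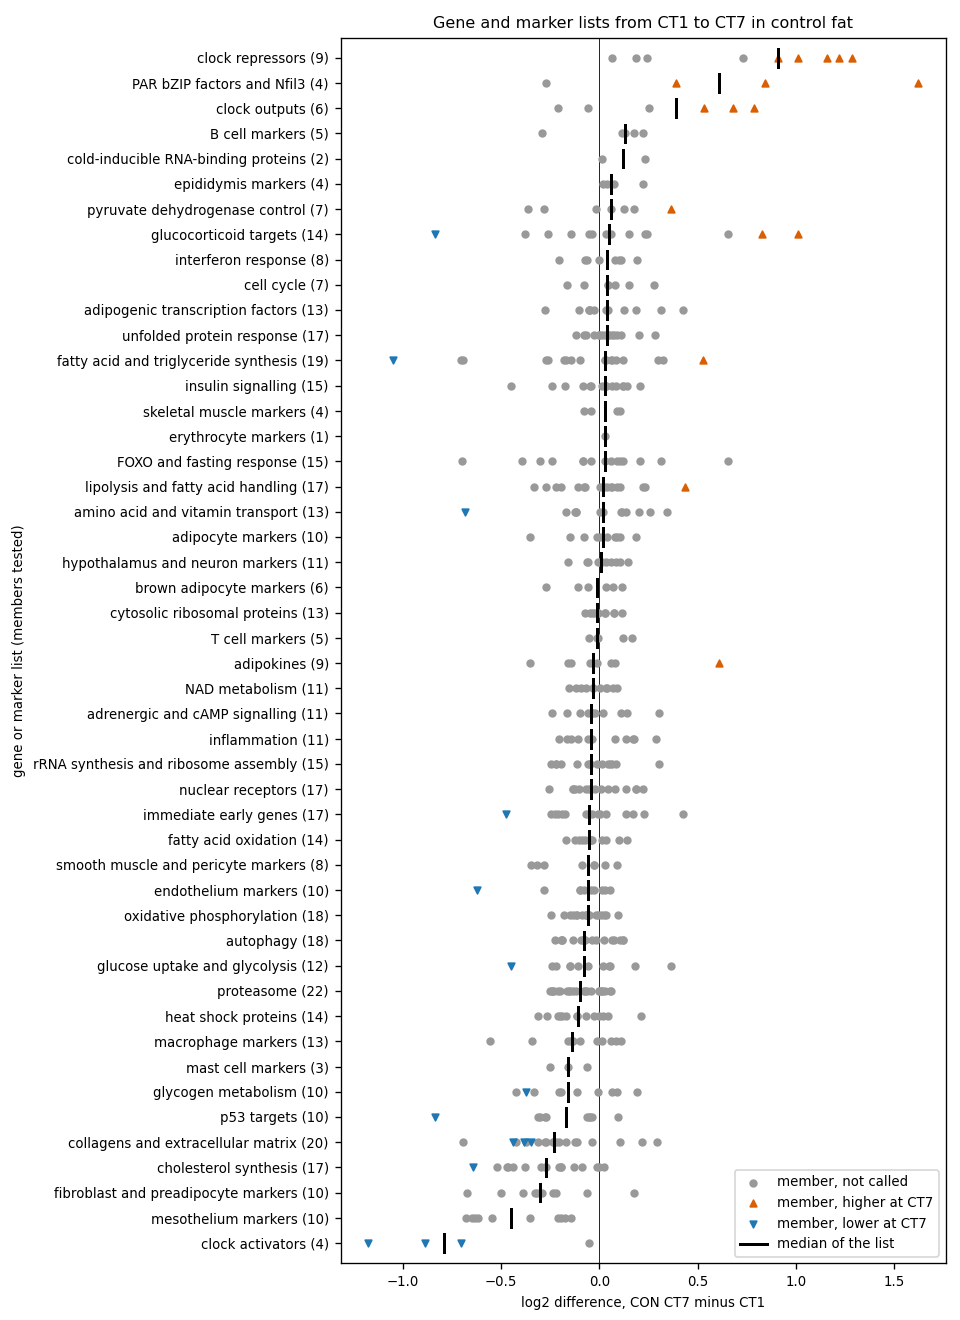
Log2 difference between CT7 and CT1 in control fat (x axis) for every tested member of each gene or marker list (y axis, with the number tested), ordered by the median of the list (black bar). Orange and blue triangles are members called higher and lower and grey points the others. The clock repressors stand at the top with a median of 0.91, the clock activators at the bottom with -0.79, and most other lists centre near 0.

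The falls were weighted towards bright genes. Divided by signal into 5 bins of 3105 or 3106 genes, the median difference ran 0.02, 0.01, -0.03, -0.08 and -0.08 from dim to bright. The calls of lower genes ran 4, 8, 23, 54 and 64, and those of higher genes 6, 5, 6, 12 and 9. In the same bins the medians of the MUT step ran from 0.00 to -0.04. With each array's trend over level removed, the bin medians lay between -0.00 and -0.02, and the split became 57 higher and 79 lower in place of 38 and 153. After quantile normalization it was 53 and 106. Of the original calls, 33 of 38 rises and 77 of 153 falls were kept with the trend removed. Dropping CT7 replicates 2 and 3, the arrays of narrow spread, left 14 higher and 3 lower, 8 and 2 of them original calls. For comparison, dropping CT7 replicates 1 and 2 left 13 and 17, and dropping replicates 1 and 3 left 10 and 23. The part of the arrays' spread in the falls was otherwise not tested.

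Over the same 6 h in MUT fat, limma called no gene at the adjusted threshold, while 1138 genes (7.33%) had an unadjusted p under 0.05. In CON 2522 genes (16.2%) did. MUT fat was not flat over the day. Arntl means at CT1, CT7, CT13 and CT19 were 8.49, 8.19, 9.52 and 9.15 in MUT. In CON they were 8.95, 8.07, 8.36 and 9.54. Bhlhe40 was likewise highest at CT13 in MUT and at CT19 in CON, while Per3 and Dbp were highest at CT7 in both. Whether the same 6 h are the same part of the cycle in MUT fat was not tested. The genes called in CON mostly leaned the same way in MUT, but by less. Of the 38 rises, 28 had a MUT difference above 0, with a median of 0.09 against 0.58 in CON. Of the 153 falls, 119 lay below 0 in MUT, with a median of -0.08 against -0.40. The share of all genes that lay below 0 in MUT was not counted. Over all genes tested the median MUT difference was -0.02, and in the brightest bin -0.04. Since the called genes were chosen for their CON difference, a smaller MUT difference is partly fixed by the choice. The CON and MUT differences, which share no array, had a Pearson correlation across genes of 0.21 over all 15526 and 0.51 over the 191 called. Genes are not independent replicates.

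The test of the difference itself found 3 genes whose step was higher in CON than in MUT (0.0193% of genes tested), and 0 the other way. At an unadjusted p under 0.05 there were 1188 (7.65%). Ciart read 7.88, 7.80 and 7.91 at CT1 and 7.75, 7.92 and 7.92 at CT7 in MUT, with overlap, against the 2.23-fold rise in CON. The difference of the steps was 1.16 ± 0.10 (adjusted p = 1.2e-06), and it passed in all 12 fits without 1 array. Dbp in MUT read 9.76, 9.50 and 9.61, then 9.78, 9.95 and 9.74, and its difference of 1.42 ± 0.24 passed (adjusted p = 0.0245). That call was lost in 7 of the 12 fits: without CON CT1 replicate 1, CON CT7 replicates 1 or 3, MUT CT1 replicates 1 or 3, or MUT CT7 replicates 1 or 3 (adjusted p up to 0.137). Pfkfb3 had steps of opposite sign, 0.37 in CON and -0.49 ± 0.10 in MUT, where it read 11.06, 10.95 and 11.17, then 10.62, 10.66 and 10.43. Neither step was called on its own, although the CON step was with the level trend removed. Their difference of 0.86 ± 0.14 was called (adjusted p = 0.0146). It was lost without CON CT1 replicate 1, CON CT7 replicate 1, MUT CT1 replicates 1 or 3, or MUT CT7 replicate 3 (adjusted p up to 0.0937).

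Other clock genes did not pass this test. Per1 came near, with a MUT step of -0.09 ± 0.14 and a difference of 1.10 ± 0.20 (adjusted p = 0.0638). Nr1d1 in MUT went from 11.70, 11.80 and 11.69 to 10.80, 10.90 and 10.78, without overlap. In CON its step was 0.19 ± 0.17, with overlap. Neither its MUT step (adjusted p = 0.107) nor the difference (1.09 ± 0.24, adjusted p = 0.158) was called. Asb12 had a MUT step of -0.21 ± 0.21 and a difference of -1.53 ± 0.30 (adjusted p = 0.085). Some steps were alike in size: Wee1 rose by 0.68 in CON with a MUT difference of 0.64 ± 0.13, and Cdkn1a fell by 0.84 with -0.77 ± 0.16 in MUT. The differences between genotypes for Wee1 and Cdkn1a were 0.04 ± 0.18 and -0.06 ± 0.23. Usp2 had 0.79 in CON and 0.55 ± 0.10 in MUT (adjusted p = 0.0844 for the MUT step).

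**Figure D5:**
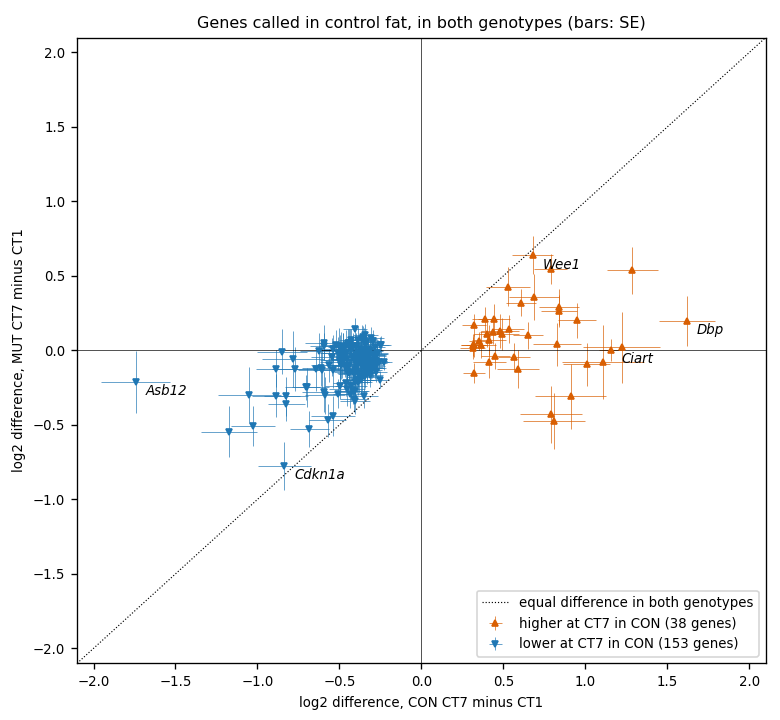
Log2 difference between CT7 and CT1 in MUT fat (y axis) against that in CON fat (x axis) for the 191 genes called in CON, with SE bars. On the dotted line the differences are equal. Wee1 and Cdkn1a lie near it, Ciart (0.00) and Asb12 (-0.21) lie close to 0 on the MUT axis, and all 191 genes have the larger size in CON, for which they were chosen.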

How the data were processed

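The deposited log2 values per probe set were made by the authors with RMA and Affymetrix Expression Console from biotin-labelled Trizol RNA, per the submitters' processing notes and the labels' protocols. Their versions and settings, and the design's build, were not stated there. RMA brings whole arrays to a common distribution before probe sets are summarised and can compress differences of dim genes. Of 34390 probe sets, 23521 carry 1 symbol, 1814 several and 9055 none, and symbols were updated through Entrez identifiers to GRCm38.p6, with 193 unmatched. Of 22180 genes, those with a mean signal below 7.416 (the 30th percentile) were dropped. Means of 8 groups were modelled over 24 arrays in limma 3.58.1 (R 4.3.3; 16 residual degrees of freedom, moderated test, two-sided), and checked on simulated data. The CT7 minus CT1 contrast was taken in CON, in MUT and between them, with Benjamini-Hochberg adjustment over 15526 genes at 0.05. Precision is set by 3 arrays per group.

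Genes named were the 12 largest rises and falls among called genes whose arrays do not overlap, predicted genes left out. They also include every measured clock-list gene, up to 4 members per other list with the smallest p, up to 6 genes per direction whose steps differ between genotypes, and Arntl and Syt10. Others in the sets called without each array, with E-boxes or with D-boxes were named after their values were seen. The 34 gene lists and 14 marker lists, and the genes named, were chosen with earlier results of these data known. The alternatives changed the normalization, the filter, the probe-set rule, the variance model, the arrays used, a block of the title letters and a mesothelium covariate. Those added after seeing the data dropped other pairs of CT7 arrays. Promoter windows came from RefSeq (GRCm38.p6). Python 3.11.15, pandas 2.3.3 and matplotlib 3.10.9 were used.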

Additional observations from a re-analysis of the deposited data

Results flagged for a closer look

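The difference between the CON and MUT steps passed limma's test of that difference for 3 genes, which are the ones to look at again. It was 1.16 for Ciart, 1.42 for Dbp and 0.86 for Pfkfb3 on the log2 scale. Ciart and Dbp rose in all comparisons of CT7 with CT1 arrays in CON, while Pfkfb3 had steps of opposite sign in CON and MUT, neither of them called. With the level trend removed, the CON step of Pfkfb3 was called. The cause of these differences was not tested.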

How the results depend on the processing

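The CON counts of 38 higher and 153 lower depended on the fit. The labels do not say whether the title letters pair mice. Same-letter deviations from the group means at CT1 and CT7 had correlations of 0.0981, 0.218 and -0.00679 in CON. In MUT they were -0.0803, 0.217 and -0.0875. Deviations within a group of 3 sum to 0, so these values are tied to each other and cannot settle the question. With the replicate block the counts were 35 and 133, with 2 genes for the genotype difference. Removing the level trend gave 79 lower genes. Array weights gave 400 and 1335, fitting the compared arrays alone 61 higher, and a fold of at least 1.5 gave 19 and 23. With CT7 replicates 2 and 3 dropped there were 14 and 3, with replicates 1 and 2 dropped (chosen after seeing the data) 13 and 17, and with 1 and 3 dropped (likewise) 10 and 23. A lone array is then assumed to vary like the other groups. Leaving out 1 array gave 14 to 53 higher and 15 to 264 lower.

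The MUT counts of 0 became 1 higher with the trend removed, 1 lower with arrays shifted to the same median or with the 60th percentile filter, 3 and 3 with array weights, 1 and 1 with trended and robust variance, 1 lower with the compared arrays alone, and 2 and 4 with the mesothelium covariate. Leaving out 1 array gave 0 to 4 higher and 0 to 2 lower. The 3 genes of the genotype difference became 20 with 35 the other way under array weights, 10 with 5 for the compared arrays alone, and 6 with 1 with the covariate. They became 1 with either added pair dropped, and 1 to 5 with 0 to 3 without 1 array. No gene named as called changed its direction under any alternative run. Of those 41, 5 kept their call under every alternative that tested them, other than the fold minimum: Dbp, Per3, Ciart, Asb12 and Usp2. Ciart and Asb12 lay below the 60th percentile filter, so they were not tested in that fit. The causes were not tested.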
